A study of Mus musculus with 4 samples.

Results

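Megakaryocytes, the precursors of platelets, numbered 152 among the 54074 cell barcodes kept from mouse embryonic heart ventricles. They were selected by their own counts of unique molecular identifiers (UMIs, each standing for 1 captured RNA molecule). A member held at least 5 UMIs of Pf4, Ppbp, Gp9, Itga2b and Gp1bb together, with at least 2 of these 5 genes detected. It also held at most 2 UMIs of the 3 C1q genes of macrophages and at most 1 UMI of the endothelial genes Cdh5, Emcn and Plvap, and its 8 cardiomyocyte genes made up less than 1% of its UMIs. The levels of these genes therefore describe the selection. Below they serve only to describe barcodes and to split them by the share of these genes.

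The KO embryos were Gata4fl/fl;Rosa26mTmG/+;Cdh5(Pac)-CreER+, with both Gata4 alleles floxed, and the het embryos were Gata4fl/+;Rosa26mTmG/+;Cdh5(Pac)-CreER+. Both groups therefore carried the Cre and at least 1 floxed allele, and no Cre-free or unfloxed embryo was among the samples. Tamoxifen was given at E9.5, ventricles were taken at E12.5 and dispersed with collagenase, and each group had 2 droplet libraries (10x Genomics). Cdh5 drives the Cre in endothelium, so Gata4 loss is aimed at endothelial cells and their progeny and not at blood cells as such, and in the mTmG reporter a red membrane protein is replaced by membrane EGFP once Cre has acted. Whether each library stands for 1 embryo or several pooled ones is not stated in the labels, so the p-values below measure only the spread between these libraries. They also name the kit in conflicting ways, as 3′ v2 and as Chromium Next GEM.

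Megakaryocytes grow large and polyploid by copying their DNA without dividing. They fill alpha and dense granules with clotting and growth factors, and extend proplatelets along microtubules built with beta-1 tubulin. The transcription factors GATA1, its cofactor FOG1 (Zfpm1), RUNX1, FLI1, TAL1 and NF-E2 are known for switching on their genes. In the embryo such cells arise in the yolk sac and the fetal liver and circulate with the blood.

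The 4 matrices held 137890971 to 190207638 UMIs. Of 61172 barcodes, 54074 had at least 500 genes and less than 20% mitochondrial UMIs, and 19897 of those were under the cardiomyocyte limit. Library het 1 stood apart, with 20.8% of its kept barcodes under that limit, against 44.3% in KO 1, 45.6% in KO 2 and 56.5% in het 2. Libraries shared 23 to 103 cell barcodes pairwise, none of them a member. Of the members, 1 was called a doublet and was kept.

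The megakaryocyte genes passed the limit in 276 barcodes, of which 47 were dropped for C1q genes and 77 for endothelial genes. The remaining 152 comprised 78 barcodes of KO 1 and 14 of KO 2, against 23 of het 1 and 37 of het 2. A further 163 barcodes met every condition but the cardiomyocyte limit, and 124 of them were in het 1. Just inside the limit lay 13 members with 5 or 6 UMIs of the 5 genes, and just outside lay 27 barcodes with 3 or 4. Members held 1014 to 145259 UMIs, with a median of 9403.5, and a median of 2326.5 genes. The summed members gave 1005294 UMIs in KO 1 and 477288 in KO 2, against 425747 in het 1 and 588058 in het 2.

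**Figure D1:**
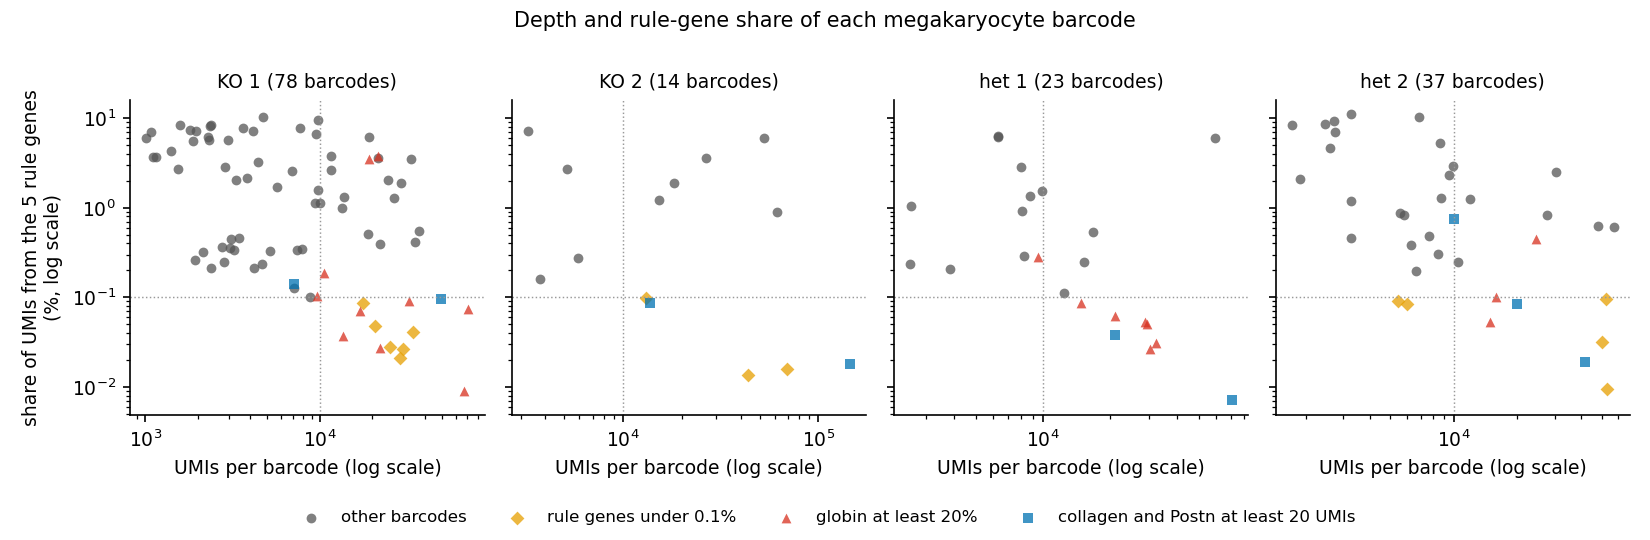
UMIs per member barcode (x axis, log scale) against the percentage of those UMIs from the 5 selecting genes (y axis, log scale), 1 panel per library. The dotted lines mark 10000 UMIs and 0.1%. The members spread from 1014 to 145259 UMIs, and barcodes of every library lie under 0.1%. Those of het 1 all held at least 20% globin or at least 20 collagen and Postn UMIs.

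Genes that the selection did not use were in keeping with the label in most members but not in all. Of the 152 members, 131 held at least 3 of 9 other platelet-lineage genes (Gp1ba, Gp5, Gp6, Itgb3, Clec1b, Treml1, Tubb1, Nfe2 and Plek), the median was 6 of 9, and 5 members held none. At least 3 were found in 16 of the 29 members with at least 20% globin or at least 20 collagen and Postn UMIs. In the other 123 members that number was 115. Plek is less particular, found in 65.5% of megakaryocytes and 34.0% of macrophages after thinning each barcode to 2000 UMIs. Among the selecting genes, Pf4 was detected in 141 members, Itga2b in 136, Gp9 in 134, Ppbp in 80 and Gp1bb in 63. All 5 were found together in 39 members and at least 4 in 87.

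Pf4 and Ppbp are neighbouring chemokine genes whose products (platelet factor 4 and pro-platelet basic protein) are stored in alpha granules. In the GENCODE M21 annotation of GRCm38, Pf4 lies at chr5:90772435-90773383 and Ppbp at chr5:90768518-90770063, both on the plus strand and 2372 bases apart. Pf4 stood at 11050 and 9466 UMIs per 1000000 UMIs of the summed members (CPM) in KO 1 and KO 2, against 9306 and 7382 CPM in het 1 and het 2. Ppbp stood at 1552 and 1251 CPM in the KO libraries, against 1336 and 549 CPM in the het libraries, where het 2 was the lowest. Macrophages of the same libraries averaged 40.8 CPM of Pf4. Their gate allowed at most 2 UMIs of the selecting genes, so that level was capped by definition. Pf4 was still found in 190 of the 416 macrophages.

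Itga2b encodes integrin alpha-IIb, the partner of integrin beta-3 in the fibrinogen receptor (chr11:102453297-102470122, minus strand). Its level was 635 and 735 CPM in the KO libraries, against 911 and 772 CPM in the het libraries. Gp9 and Gp1bb encode subunits of the von Willebrand factor receptor. Gp9 (chr6:87778072-87779768, plus strand) stood at 603 and 541 CPM in the KO libraries, against 669 and 556 CPM in the het libraries. Gp1bb (chr16:18620317-18622403, minus strand) stood at 51.7 and 39.8 CPM, against 49.3 and 86.7 CPM, and it overlaps Sept5 on the same strand, so its reads may be split between both genes.

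The 15 genes that led the cells after the selecting ones were ranked by the ratio of their CPM to that of all other kept barcodes, taking the lowest of the 4 libraries. They were Gp5, Gp6, Cd226, F2rl2, Treml1, Pls1, Tubb1, Alox12, Gp1ba, Prkcq, Slc35d3, Slc6a4, Itgb3, Mmrn1 and Lat, and their lowest ratios ran from 245 for Gp5 to 109 for Lat. The ratio is a description of cells that had been chosen by similar genes and carries no test.

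Receptors for the vessel wall and for fibrinogen were among them. Gp5, the fourth subunit of the von Willebrand factor receptor, stood at 312 and 404 CPM in the KO libraries, against 526 and 315 CPM in the het libraries. Gp6, the signalling receptor for collagen, stood at 156 and 128 CPM, against 115 and 74.8 CPM. Itgb3, the integrin beta-3 chain, stood at 727 and 606 CPM, against 691 and 435 CPM. For Gp6 and Itgb3 het 2 was the lowest library, whereas for Gp5 KO 1 and het 2 were close to each other and het 1 was the highest.

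Treml1, a receptor kept in alpha granules, reached 487 and 539 CPM in the KO libraries, against 658 and 520 CPM in the het libraries. Tubb1, the beta-1 tubulin of platelet microtubules, stood at 147 and 126 CPM, against 141 and 51.0 CPM. Alox12, the platelet lipoxygenase, stood at 412 and 654 CPM, against 554 and 199 CPM. Het 2 was the lowest library for Tubb1 and Alox12 but not for Treml1. Slc6a4, the serotonin transporter of the platelet membrane, stood at 188 and 304 CPM in the KO libraries, against 160 and 102 CPM in the het libraries. The other 8 genes stood between 54.4 and 453 CPM in every library.

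**Figure D2:**
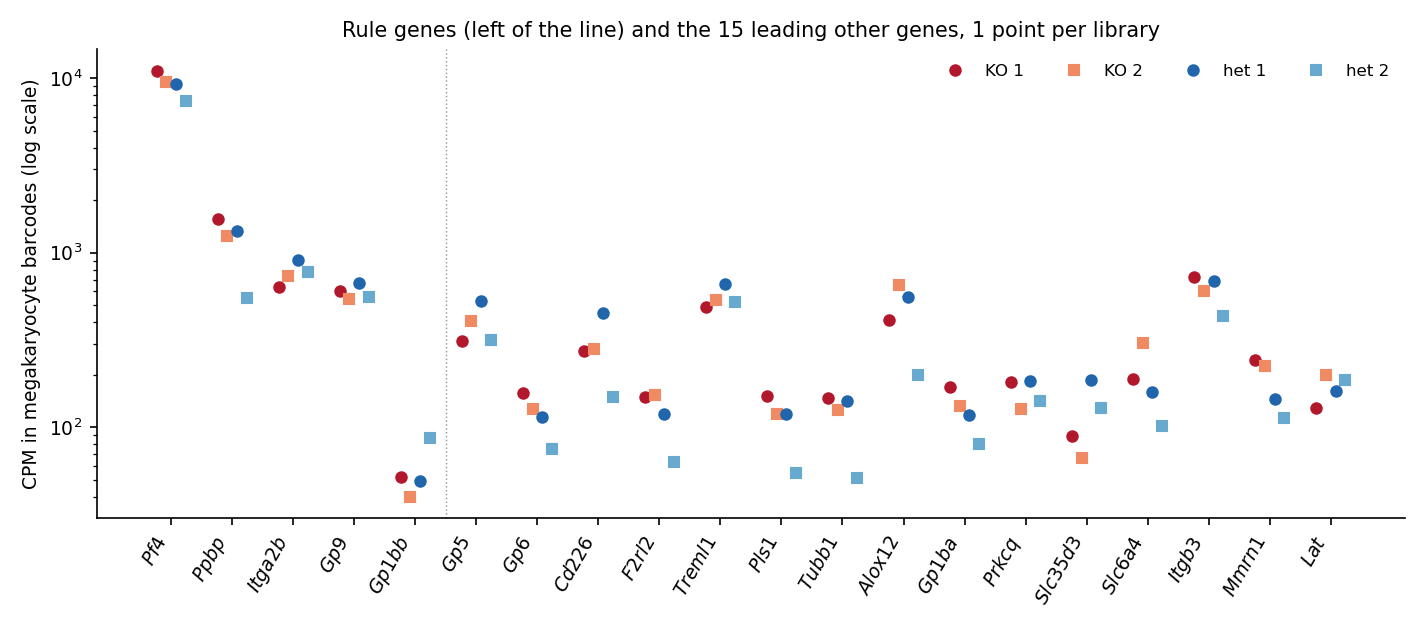
Level of the 5 selecting genes (left of the line) and of the 15 leading genes (right) in CPM on a log scale, 1 point per library. Pf4 lies between 7382 and 11050 CPM, and the leading genes lie between 51.0 and 727 CPM, with het 2 the lowest library for most of them.

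The promoters of 5 such genes are printed because GATA and ETS factors are known to act together on platelet genes. Each run holds the 250 bases before the gene's start in RefSeq on GRCm38.p6, read 5′ to 3′ on the gene's strand. Capitals mark matches, on either strand, to the GATA motifs AGATAA or TGATAA and to the ETS motifs AGGAAG or CGGAAG. The windows are chr5:90772185-90772434 (plus) for Pf4, chr6:87777820-87778069 (plus) for Gp9, chr11:70638872-70639121 (plus) for Gp1ba, chr16:30310782-30311031 (minus) for Gp5 and chr6:129397047-129397296 (plus) for Clec1b.
Pf4: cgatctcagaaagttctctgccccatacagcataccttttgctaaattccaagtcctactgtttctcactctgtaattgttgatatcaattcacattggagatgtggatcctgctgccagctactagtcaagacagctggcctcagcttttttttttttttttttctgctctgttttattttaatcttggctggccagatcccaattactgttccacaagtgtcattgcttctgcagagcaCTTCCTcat
Gp9: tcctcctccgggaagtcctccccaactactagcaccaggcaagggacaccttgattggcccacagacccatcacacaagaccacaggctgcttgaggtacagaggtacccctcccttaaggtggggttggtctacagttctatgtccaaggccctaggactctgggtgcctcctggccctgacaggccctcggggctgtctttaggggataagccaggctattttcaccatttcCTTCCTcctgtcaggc
Gp1ba: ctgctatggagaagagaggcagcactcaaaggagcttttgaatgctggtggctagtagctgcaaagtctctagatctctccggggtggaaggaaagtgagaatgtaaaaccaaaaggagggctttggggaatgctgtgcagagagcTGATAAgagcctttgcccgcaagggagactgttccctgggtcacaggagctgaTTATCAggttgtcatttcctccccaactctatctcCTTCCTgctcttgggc
Gp5: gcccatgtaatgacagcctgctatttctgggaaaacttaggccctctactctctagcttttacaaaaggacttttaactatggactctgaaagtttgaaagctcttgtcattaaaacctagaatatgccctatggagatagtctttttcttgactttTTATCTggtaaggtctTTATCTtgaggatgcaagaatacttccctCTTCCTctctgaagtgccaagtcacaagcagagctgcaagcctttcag
Clec1b: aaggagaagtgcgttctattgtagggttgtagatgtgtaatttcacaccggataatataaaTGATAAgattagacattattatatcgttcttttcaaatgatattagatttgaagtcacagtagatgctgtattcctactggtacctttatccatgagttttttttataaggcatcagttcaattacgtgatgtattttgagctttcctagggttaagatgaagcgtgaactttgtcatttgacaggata

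Counting back from the gene's start to the first base of the match, Pf4 had an ETS match at -9 and Gp9 at -16. Gp1ba, the ligand-binding subunit of the von Willebrand factor receptor, had GATA matches at -104 and -51 and an ETS match at -16. Gp5 had GATA matches at -93 and -77 and an ETS match at -48. Clec1b, the podoplanin receptor CLEC-2, had a GATA match at -189 and no ETS match. Over all 32851 RefSeq promoters of this length, 16.6% held a GATA match, 39.2% an ETS match and 5.49% both. Of the 15 leading genes 13 had a promoter in the table, and 5 of these held a GATA match, 6 an ETS match and 3 both. None of the 5 selecting genes held a GATA match and 4 held an ETS match. A match is a string of letters only, and binding was not measured here.

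Most of the adhesion and agonist receptors were present. Of 33 listed receptors, 25 stood at 10 CPM or more in all 4 libraries and 26 stood above all other kept barcodes in all 4. Clec1b stood at 770 and 721 CPM in the KO libraries, against 902 and 536 CPM in the het libraries, and averaged 0.149 CPM in macrophages. Cd9, a tetraspanin of the platelet surface, stood at 1132 and 995 CPM, against 1033 and 942 CPM. Fcer1g, the signalling chain that carries Gp6, stood at 301 and 331 CPM, against 381 and 255 CPM, and averaged 1300 CPM in macrophages.

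Several thrombin receptors were found. F2rl2 (PAR3) stood at 148 and 153 CPM in the KO libraries, against 120 and 62.9 CPM in the het libraries, and F2rl3 (PAR4) averaged 28.3 CPM. F2r (PAR1) stood at 253 and 241 CPM, against 221 and 250 CPM, and endothelial cells of the same libraries averaged 314 CPM. The ADP receptor P2ry1 stood at 224 and 130 CPM, against 209 and 187 CPM, whereas P2ry12, the other ADP receptor, stood at 37.8 and 48.2 CPM, against 25.8 and 8.50 CPM. The ATP-gated channel P2rx1 stood at 156 and 119 CPM, against 176 and 111 CPM. P-selectin (Selp) had 7 UMIs in all 152 members, Adra2a, the adrenaline receptor, also had 7, and Tbxa2r, the thromboxane receptor, averaged 10.7 CPM.

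Granule and secreted proteins were led by Thbs1 (thrombospondin-1), at 2526 and 2101 CPM in the KO libraries, against 2415 and 1580 CPM in the het libraries. Of 34 listed genes, 23 stood at 10 CPM or more in all 4 libraries and 20 stood above all other kept barcodes in all 4. Srgn, the granule proteoglycan serglycin, stood at 606 and 696 CPM, against 545 and 446 CPM. Tgfb1 stood at 403 and 509 CPM, against 366 and 505 CPM. Rab27b, which directs dense granule release, stood at 415 and 339 CPM, against 308 and 236 CPM. Vwf stood at 240 and 264 CPM, against 162 and 180 CPM, and averaged 110 CPM in endothelial cells. After every barcode was thinned to 2000 UMIs, Vwf was found in 34.5% of megakaryocytes and 0.254% of macrophages. Coagulation factor V (F5) stood at 151 and 168 CPM, against 117 and 51.0 CPM, and factor X (F10) at 99.5 and 92.2 CPM, against 125 and 109 CPM. For Srgn, Vwf and F5 both KO libraries lay above both het libraries, also after TMM scaling, as they did for 13.2% of all 6698 genes tested, and no gene passed the test of KO against het given below (0.0% of genes called).

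Most enzymes and adaptors of platelet activation were present. Of 38 listed genes, 34 stood at 10 CPM or more in all 4 libraries, 35 stood above all other kept barcodes and 16 stood more than 10 times above. Rap1b, the small GTPase upstream of integrin activation, stood at 1799 and 1435 CPM in the KO libraries, against 2459 and 1789 CPM in the het libraries. Its exchange factor Rasgrp2 stood at 535 and 654 CPM, against 930 and 432 CPM. Fermt3 (kindlin-3) stood at 762 and 689 CPM, against 754 and 592 CPM. Ptgs1, the cyclooxygenase of platelets, stood at 97.5 and 166 CPM, against 47.0 and 76.5 CPM, and its partner Tbxas1, which makes thromboxane, at 127 and 109 CPM, against 188 and 139 CPM. In the cytoskeleton list 33 of 36 genes stood at 10 CPM or more in all 4 libraries but only 4 stood more than 10 times above other barcodes. Tuba4a, an alpha-tubulin, stood at 565 and 1073 CPM in the KO libraries, against 864 and 379 CPM in the het libraries, and Myh9, the non-muscle myosin heavy chain, at 924 and 807 CPM, against 1071 and 471 CPM.

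Genes of cytokine signalling were present in part. Of 27 such genes, 17 stood at 10 CPM or more in all 4 libraries and 12 stood above all other kept barcodes in all 4. Jak2, a kinase of cytokine receptors, stood at 92.5 and 56.6 CPM in the KO libraries, against 47.0 and 34.0 CPM in the het libraries. The survival kinase Pim1 stood at 444 and 423 CPM, against 827 and 721 CPM, and the survival factor Bcl2l1 at 129 and 83.8 CPM, against 117 and 86.7 CPM. Both KO libraries lay above both het libraries for Jak2, as for 13.2% of all genes tested, and below both for Pim1, as for 10.1%, and neither gene passed the test of KO against het.

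Several transcription factors stood far above their levels in macrophages. Gata1 stood at 144 and 136 CPM in the KO libraries, against 134 and 141 CPM in the het libraries, and averaged 3.08 CPM in macrophages, 1.09 CPM in endothelial cells and 19.2 CPM in erythroid cells. Gata2 stood at 136 and 166 CPM, against 207 and 122 CPM, and averaged 1.46 CPM in macrophages and 69.1 CPM in endothelial cells. Zfpm1, the GATA cofactor FOG1, stood at 354 and 321 CPM, against 308 and 476 CPM, and averaged 20.4 CPM in macrophages. Nfe2, the NF-E2 subunit needed for platelet release, stood at 162 and 187 CPM, against 214 and 141 CPM, and averaged 3.90 CPM in macrophages and 37.3 CPM in erythroid cells.

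Other factors were shared with a neighbouring type. Runx1 stood at 217 and 201 CPM in the KO libraries, against 108 and 276 CPM in the het libraries, and averaged 117 CPM in macrophages and 2.73 CPM in endothelial cells. Fli1 stood at 178 and 117 CPM, against 96.3 and 158 CPM, and averaged 95.9 CPM in macrophages and 117 CPM in endothelial cells. Tal1 stood at 274 and 166 CPM, against 244 and 255 CPM, and averaged 136 CPM in erythroid cells. Spi1 (PU.1), a myeloid factor, stood at 9.95 and 75.4 CPM, against 21.1 and 22.1 CPM, and averaged 284 CPM in macrophages. Klf1, an erythroid factor, stood at 17.9 and 18.9 CPM, against 9.40 and 37.4 CPM, and averaged 50.2 CPM in erythroid cells. Erg, an ETS factor of both endothelium and blood stem cells, averaged 5.58 CPM, against 99.7 CPM in endothelial cells.

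Depth per barcode differed between the types, so each barcode was also thinned to 2000 UMIs, which kept 139 of 152 megakaryocytes and 394 of 416 macrophages. Gata1 was then found in 30.2% of megakaryocytes and 0.508% of macrophages, and without thinning in 55.9% and 1.92%. Zfpm1 was found in 48.2% and 4.82% after thinning, and Nfe2 in 31.7% and 1.02%. Fli1 was found in 15.8% of megakaryocytes and 15.7% of macrophages, and Spi1 in 3.6% and 42.1%. Median depths before thinning were 7493 and 16790.5 UMIs per megakaryocyte in the KO libraries and 12441 and 8633 in the het libraries. Those of macrophages were 14504 and 20430 UMIs in the KO libraries and 4329 and 21141 in the het libraries.

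**Figure D3:**
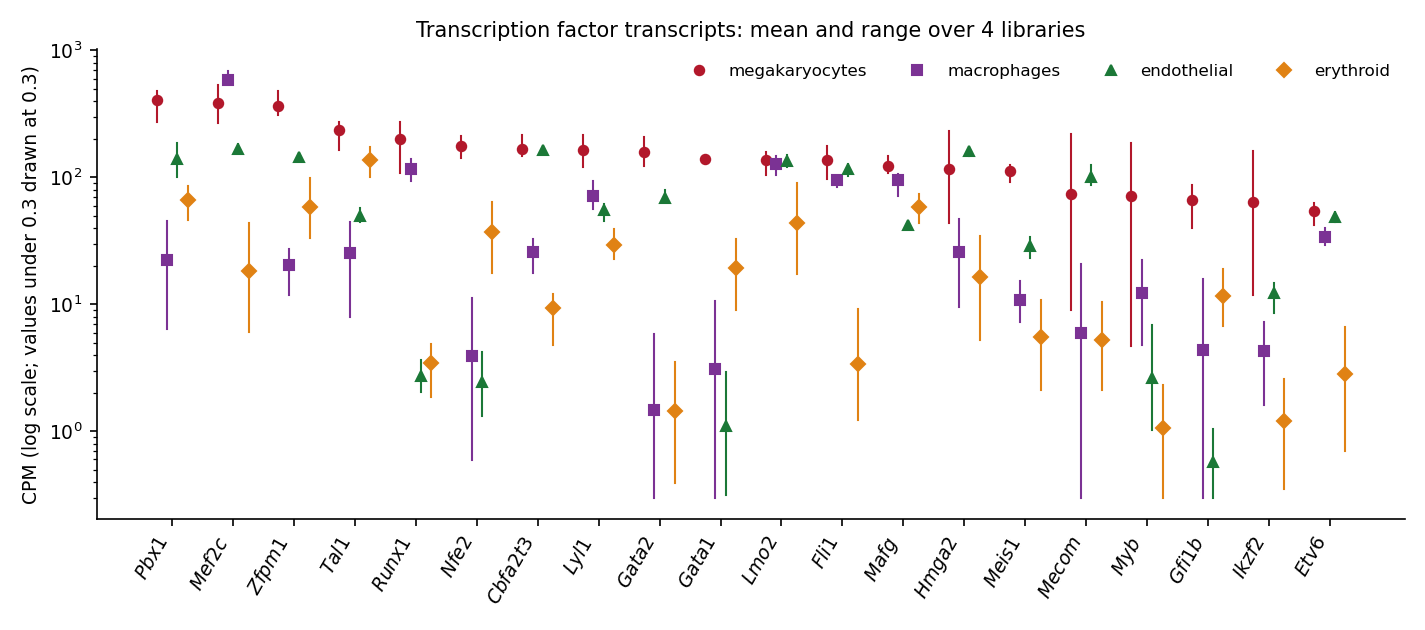
Level of 20 transcription factors in CPM on a log scale for megakaryocytes, macrophages, endothelial cells and erythroid cells, with points at the mean and lines spanning the lowest to the highest of 4 libraries. Values under 0.3 CPM are drawn at 0.3. Gata1, Nfe2 and Zfpm1 lie above all 3 other types, whereas Fli1 lies near the levels of macrophages and endothelial cells.

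RNA of other cell types was present and was uneven between libraries. Globin genes made up 12.8% and 0.643% of the members' UMIs in KO 1 and KO 2, against 17.8% and 6.81% in het 1 and het 2. A globin share of at least 20% was found in 20 members, and at least 20 UMIs of 3 collagen genes and Postn in 15, so that 29 members had either and 123 had neither. The summed 13 mesenchyme markers stood at 914 and 4737 CPM in the KO libraries, against 3173 and 1048 CPM in the het libraries, and at 131 and 37.7 CPM, against 154 and 95.5 CPM, in the 123 barcodes. The summed 18 erythroid markers stood at 9220 and 9073 CPM in the KO libraries, against 10300 and 7761 CPM in the het libraries, in those 123. Mast cell and granulocyte markers summed to 17.9 and 1322 CPM in the KO libraries, against 2.35 and 11.9 CPM in the het libraries.

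Leaving out the 29 barcodes moved some genes far. Sparc, a matrix protein that platelets also store, averaged 42.0 CPM in the 123 barcodes and 428 CPM in all 152. Mecom, a stem cell factor, averaged 3.09 CPM and 74.0 CPM, and Ets1 6.33 CPM and 42.5 CPM. Levels of these genes in the full set therefore rested largely on 29 barcodes. A single barcode held 8.50% of the UMIs of the selecting genes in KO 1 and 56.1% in KO 2, against 67.9% in het 1 and 13.9% in het 2.

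The targeted gene was low in the cells. Gata4, a zinc-finger factor of the heart and its endocardium (chr14:63198922-63271692, minus strand), had 20 and 29 UMIs in the members of KO 1 and KO 2, against 25 and 13 UMIs in het 1 and het 2, which is 19.9 and 60.8 CPM, against 58.7 and 22.1 CPM. In the 123 barcodes without much globin or collagen it had 3 and 0 UMIs in the KO libraries, against 0 and 3 UMIs in the het libraries, a mean of 2.76 CPM. Endothelial cells averaged 169 CPM and macrophages 9.23 CPM. In the full set Gata4 stood 0.13 lower in KO on the log2 scale (SE 0.70, adjusted p = 1 in edgeR's quasi-likelihood test). The reads come from the 3′ end and may lie outside the deleted part, so this level does not check the deletion. Without KO 1 or without het 1 the difference was 0.43 and 0.80, the other way.

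Megakaryocytes were rare in every library. Their share of kept barcodes was 0.552% (95% Wilson interval 0.443 to 0.688%) and 0.204% (0.121 to 0.341%) in KO 1 and KO 2, against 0.1% (0.0670 to 0.151%) and 0.363% (0.264 to 0.501%) in het 1 and het 2. The KO and het libraries thus interleaved. The means were 0.378% ± 0.246 in KO and 0.232% ± 0.186 in het (SD, n = 2 each; two-sided exact permutation p = 0.667, where 0.333 is the smallest that 2 against 2 allows). Without KO 1 the difference was -0.0284 percentage points, so its direction rested on that library. Its size rested on the cardiomyocyte limit as well. Without that limit the shares were 0.800% and 0.233% in KO 1 and KO 2, against 0.642% and 0.383% in het 1 and het 2. The difference was then 0.00347 percentage points.

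Over the barcodes under the cardiomyocyte limit, the shares were 1.25% and 0.446% in the KO libraries, against 0.484% and 0.643% in the het libraries. The means were 0.847% ± 0.567 in KO and 0.564% ± 0.112 in het (SD, n = 2 each; exact permutation p = 1), and without KO 1 the difference was -0.118 percentage points. Median UMIs per megakaryocyte, given above by library, differed by 1605 between KO and het (exact permutation p = 1), and by -3044 without KO 2 and -299.5 without het 2. The intervals cover counting error only.

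Gene levels in megakaryocytes were then compared between KO and het over summed libraries. Of 6698 genes tested, none passed an adjusted p of 0.05 in edgeR's quasi-likelihood test (0.0% called), so none of the listed genes outside the selection did. At an unadjusted p under 0.05 there were 90 genes in edgeR, 46 in DESeq2 and 67 in limma-voom, and DESeq2 and limma-voom also called 0. Each of these counts was under a share of 0.05 of the genes tested, the share expected with no difference, so the p-values ran high. In data simulated on these libraries the edgeR test recovered 30% of 4-fold changes and 82% of 8-fold changes among 100 genes each, so most 4-fold changes could not be detected. The simulation gave every gene the same dispersion of 0.122, so recovery in the real libraries may be lower. Without KO 1 the count was 69 genes (50 higher and 19 lower in KO), and without KO 2 it was 17 (7 higher and 10 lower), with 1 KO library then set against 2 het libraries and the lone library assumed to vary like the others.

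The platelet gene lists lay close to the median of all genes, which was 0.02 on the log2 scale. Of 27 receptors tested, 15 were above 0 and 12 below, with a median of 0.07. Of 24 granule genes, 14 were above 0 and 10 below, with a median of 0.04. Of 36 signalling genes 23 were above 0 (median 0.06), of 33 cytoskeleton genes 18 (median 0.09) and of 32 transcription factors 17 (median 0.11). Lists of other cell types lay further out: 15 erythroid markers had a median of -0.77 and 13 mesenchyme markers a median of 0.57, beside the globin and collagen barcodes described above, whose part in these medians was not tested.

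The genes with the smallest p among those whose KO and het libraries did not overlap, as was the case for 23.3% of all genes, are given as values, since none passed. Ifitm1, an interferon-induced membrane protein, stood at 110 and 666 CPM, scaled by TMM factors, in KO 1 and KO 2, against 0 and 27.4 CPM in het 1 and het 2 (log2 difference 4.63, SE 1.20, adjusted p = 1 in edgeR). Itga4, an integrin of blood cell progenitors, stood at 86.6 and 158 CPM, against 23.9 and 29.1 CPM (2.17, SE 0.46). Neat1, a nuclear long non-coding RNA, stood at 870 and 660 CPM, against 329 and 151 CPM (1.68, SE 0.44). In the other direction Hapln1, which links hyaluronan to proteoglycans, stood at 6.58 and 4.10 CPM, against 127 and 25.7 CPM (-3.69, SE 0.89). Itga1, a collagen-binding integrin chain, stood at 13.2 and 32.8 CPM, against 122 and 51.3 CPM (-1.96, SE 0.63). Hapln1 was highest in het 1, where the summed mesenchyme markers of all members stood at 3173 CPM, and the part of that RNA in the Hapln1 level was not tested. With a library left out or no filter on low counts some of these passed in edgeR. Without KO 1 that was Ifitm1 (adjusted p = 1.93e-11), Itga4 (adjusted p = 0.022) and Hapln1 (adjusted p = 0.0106), and without KO 2 it was Ifitm1 (adjusted p = 0.0277) and Hapln1 (adjusted p = 0.0309). With no filter on low counts it was Ifitm1 (adjusted p = 1.66e-13), Hapln1 (adjusted p = 6.43e-05), Itga4 (adjusted p = 0.0181) and Neat1 (adjusted p = 0.0222). Other repeats moved the differences. With at least 10 selecting UMIs Itga1 stood at -0.0641 on the log2 scale. Without the globin and collagen barcodes Itga4 stood at 1.30, Neat1 at 1.39 and Ifitm1 at 4.80. Hapln1 and Itga1 were no longer among the genes tested there. With barcodes under 0.1% selecting-gene UMIs left out as well, of these genes only Neat1 was still tested, at 1.86.

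The EGFP share of the summed megakaryocytes lay between those of endothelium and heart muscle. EGFP made up 66.5% and 71.1% of reporter UMIs (EGFP plus dsRed) in KO 1 and KO 2, against 49.0% and 67.3% in het 1 and het 2. In endothelial cells, where the Cre is driven, it made up 94.6% to 96.9%, and in cardiomyocytes, which lack the driver, 11.5% to 21.9%. Megakaryocytes lay 32.1 percentage points under endothelial cells (lower in 4 of 4 libraries) and 47.0 points over cardiomyocytes (higher in 4 of 4), and each comparison had an exact paired permutation p of 0.125, the smallest that 4 libraries allow.

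Against macrophages, with 27.8% and 73.9% EGFP in the KO libraries and 60.4% and 63.8% in the het libraries, megakaryocytes were higher by 7.02 points (2 of 4 libraries, exact paired p = 0.75) and without KO 1 lower, at -3.56 points. In the 123 barcodes without much globin or collagen that difference was 13.2 points (exact paired p = 0.125), and with barcodes under 0.1% selecting-gene UMIs left out as well it was 8.09 points (exact paired p = 0.375). Against erythroid cells, with 27.6% and 29.2% in the KO libraries and 56.0% and 34.5% in the het libraries, they were higher by 26.7 points in 3 of 4 libraries (exact paired p = 0.25). Between the genotypes, the EGFP share was 68.8% ± 3.26 in KO and 58.1% ± 13 in het (SD, n = 2 each; exact permutation p = 0.667). The het 1 value rested on 1 barcode with 184 EGFP UMIs, without which it was 17.9%, under the 18.2% of het 1 cardiomyocytes, and with no C1q or endothelial UMI allowed it was 13.8%. Without het 1 as a whole the difference of 10.7 points was 1.5 points. Under stricter selections it ran from 2.97 points, with at least 3 selecting genes detected, to 32.2 points, with no C1q or endothelial UMI allowed. Without each library's highest barcode the shares were 63.0% and 58.0% in the KO libraries and 61.9% in het 2.

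Barcode by barcode, the reporter was split. Among 90 members with at least 5 reporter UMIs, 26 held at least 4 times more EGFP than dsRed, 43 held at least 4 times more dsRed and 21 were mixed. The EGFP class was 33.3% (95% Wilson interval 20.6 to 49.0%) and 45.5% (21.3 to 72%) of callable members in KO 1 and KO 2, against 13.3% (3.74 to 37.9%) and 24.0% (11.5 to 43.4%) in het 1 and het 2. Both KO libraries were above both het libraries, with wide and overlapping intervals (39.4% ± 8.57 in KO and 18.7% ± 7.54 in het, SD, n = 2 each; exact permutation p = 0.333, the smallest possible). In a narrower set, globin and collagen barcodes and those under 0.1% selecting-gene UMIs were left out. EGFP and dsRed barcodes there numbered 7 and 12 in KO 1, 3 and 3 in KO 2, 2 and 5 in het 1 and 4 and 9 in het 2. By a related measure, the share with more EGFP than dsRed among barcodes with any reporter UMI, the libraries interleaved there. It was 25.5% and 37.5% in KO 1 and KO 2, against 25.0% and 29.2% in het 1 and het 2. The EGFP class made up 83.8% to 89.4% of endothelial cells and at most 2.69% of cardiomyocytes. Their median depths were 9153 to 26665 and 4005 to 6428.5 UMIs by library.

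**Figure D4:**
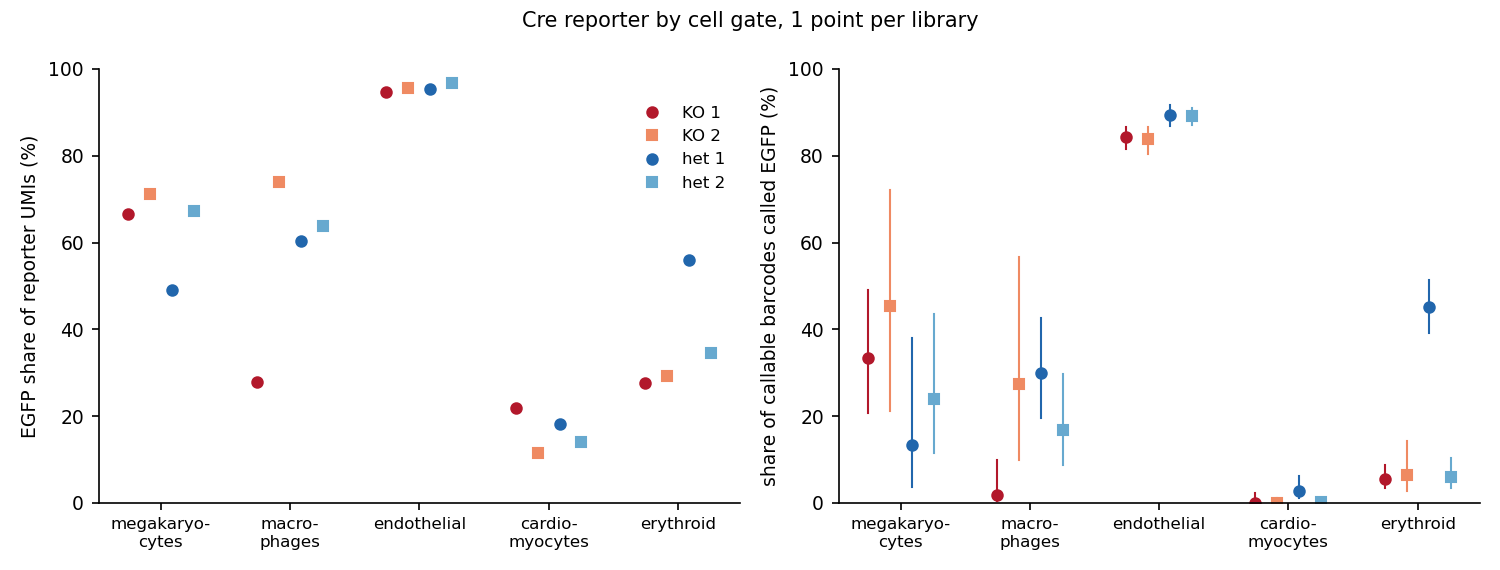
Left, EGFP as a percentage of EGFP plus dsRed UMIs in each library for megakaryocytes, macrophages, endothelial cells, cardiomyocytes and erythroid cells. Right, percentage of callable barcodes in the EGFP class with 95% Wilson intervals. Megakaryocytes lie between the endothelial values near 95.6% and the cardiomyocyte values near 16.4% on the left.

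Megakaryocytes with EGFP and those with dsRed were compared within libraries on 24 and 32 barcodes without much globin or collagen. Of 3616 genes, 1 was called in edgeR at an adjusted p under 0.05 (0.0277% called), and that gene was EGFP itself (adjusted p = 0.00643), which defined the classes. None of the 24 receptors or 21 transcription factors tested passed, with medians of -0.45 and -0.68 on the log2 scale, EGFP minus dsRed, beside 0.04 for all genes. Simulated 4-fold changes, drawn with the same dispersion of 0.187 for every gene, were recovered for 63% of 100 genes in this comparison. Limma-voom called 2 genes and DESeq2 4. Of the 24 EGFP barcodes 8, and of the 32 dsRed barcodes 3, drew less than 0.1% of their UMIs from the selecting genes. Without them 2279 genes were tested, 1 was called, and the medians were 0.05 for the 23 receptors and -0.68 for the 17 transcription factors tested.

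The 123 barcodes without much globin or collagen differed in size and content. A group of 12 barcodes had at least 10000 UMIs but drew less than 0.1% of them from the selecting genes, 6 from KO 1 and 3 from KO 2, against 0 from het 1 and 3 from het 2. The limits of 10000 UMIs and 0.1% were chosen after the data were seen, so what follows on this group is a description. Kit, the stem cell factor receptor, was found in 11 of the 12, Cdk6 in 11, Myb, a factor of blood progenitors, in 8 and Ifitm1 in 7. Of the 29 large barcodes at or over 0.1%, Kit was found in 3, Myb in 3 and Ifitm1 in none, and of 80 smaller ones at or over 0.1% Kit was found in 1 and Myb in none.

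The 12 barcodes held 190 CPM of Itga2b and 114 CPM of Pf4, against 986 and 17950 CPM in the other 29 large barcodes. Both are selecting genes, whose summed share split the 12 from the 29, so these levels only describe the split. At least 3 of the 9 other platelet-lineage genes were found in 9 of the 12 and in all 29. The 12 held 595 EGFP and 39 dsRed UMIs, whereas the 29 held 1027 and 429 and the 80 smaller ones 404 and 358. Mpo, the granulocyte peroxidase, was found in 4 of the 12 and Cpa3, a mast cell protease, in 3, and 463 of the 468 Mpo UMIs came from a single KO 2 barcode. A single KO 2 barcode likewise held 325 of the 441 Ifitm1 UMIs of the 123 barcodes, all 441 lay in the 12, and the Ifitm1 levels given above include them.

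With those barcodes set aside, 29 large members were compared with 80 small members inside the 4 libraries. The large class held 14 and 5 barcodes in KO 1 and KO 2 and 4 and 6 in het 1 and het 2, with median depths of 16075.5 to 29017.5 UMIs, and the small class held 46 and 4 in KO and 10 and 20 in het, with medians of 3163.5 to 7130 UMIs. Of 3158 genes tested with the library as a block, 240 were called in edgeR at an adjusted p under 0.05 (7.6%), 172 of them higher in the large class (5.45%) and 68 lower (2.15%). The count depended on single libraries: it was 1 without KO 1, 839 without KO 2, 34 without het 1 and 15 without het 2. All of the 240 that could still be tested kept their direction, 195 of 195 without KO 1, 237 of 237 without KO 2, 240 of 240 without het 1 and 215 of 215 without het 2. These repeats share most libraries with the fit that chose the genes, so the kept direction is no separate support.

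Some genes of DNA replication rose in the large class. Of 13 S phase genes tested, 5 rose, beside 5.45% of all genes, and all 13 lay above 0, with a median of 2.48 on the log2 scale, beside 0.13 for all genes. The libraries differed: all 13 were higher in the large class of KO 1 and het 2, whereas 5 of 13 were lower in that of KO 2 and 4 of 13 in that of het 1. The summed S phase genes stood at 1611 and 1092 CPM in the large barcodes of the KO libraries and 259.5 and 3118 CPM in those of the het libraries, against 317.4, 883.9, 232.8 and 305.9 CPM in the small barcodes. Mcm6, a subunit of the replicative helicase, stood at 180 and 46.4 TMM-scaled CPM in the large barcodes of KO 1 and KO 2 and 21.7 and 331 CPM in those of het 1 and het 2. In the small barcodes it was seen in KO 1 alone, at 19.6 CPM. Pooled over libraries that was 115 UMIs in the large class and 3 in the small class, a ratio of 18.8 (95% exact counting interval 6.27 to 92.4). Mcm2, another helicase subunit, had 59 and 1 UMIs, a ratio of 28.9 (4.99 to 1161). Mcm5 had 72 and 3, a ratio of 11.8 (3.87 to 58.4). These intervals treat each UMI as independent, so they leave out the spread between barcodes and between libraries. Without KO 1 only 5 S phase genes could be tested, all 5 above 0 with a median of 1.27 and none past the threshold.

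Genes of mitosis rose in part. Of 17 G2/M genes tested, 4 rose (beside 5.45% of all genes), 2 fell (beside 2.15%) and the median was 1.27. Top2a, the topoisomerase that untangles replicated DNA, stood at 276 and 437 CPM in the large barcodes of KO 1 and KO 2 and 10.8 and 759 CPM in those of het 1 and het 2, against 26.1, 0, 36.6 and 22.4 CPM in the small barcodes (log2 difference 3.62, adjusted p = 0.00596 in edgeR). Mki67, a marker of cycling cells, stood at 251, 563, 21.7 and 669 CPM in the large class, against 58.8, 114, 0 and 145 CPM in the small class (2.20, adjusted p = 0.0118). In het 1 the large class was not higher for Top2a, and of the 17 genes 3 were higher and 10 lower there. Summed G2/M genes stood at 1115 CPM in its large and 2716 CPM in its small barcodes. In the other libraries few large barcodes held many of the UMIs of the listed G2/M genes. A single KO 2 barcode held 447 of them, and each other large KO 2 barcode at most 76. In KO 1 a single barcode held 296, and each other at most 92. Barcodes of het 2 held 302 and 260, and each other at most 78. The part of these barcodes in the Top2a and Mki67 levels was not tested. Cdkn1c, an inhibitor of the cell cycle, fell, at 17.7, 26.5, 10.8 and 12.1 CPM in the large class, against 137, 56.8, 402 and 67.1 CPM in the small class (-3.01, adjusted p = 0.00738). Cdkn1b, a related inhibitor, fell as well (-1.68, adjusted p = 0.0375).

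Histone genes moved in both directions. H1f5, a linker histone, stood at 704 and 901 CPM in the large barcodes of KO 1 and KO 2 and 10.8 and 2283 CPM in those of het 1 and het 2, with 715 UMIs pooled, against 2 UMIs in the small class, a ratio of 175 (95% exact counting interval 48.3 to 1449). That interval likewise leaves out the spread between barcodes and between libraries. H1f5 was the gene called without KO 1. Hist1h2ap rose (2.98, adjusted p = 0.00544 in edgeR), whereas Hist1h2al fell (-2.10, adjusted p = 0.00769) and H4c8 fell (-1.98, adjusted p = 0.0118). Reads of such near-identical histone copies may be split between them, so the values of single copies are uncertain.

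Of the other genes with the smallest p, Parp1, a DNA repair enzyme, stood at 202, 92.8, 119 and 259 CPM in the large class of KO 1, KO 2, het 1 and het 2, against 32.7, 0, 18.3 and 11.2 CPM in the small class. Ezh2, the histone methyltransferase of Polycomb, stood at 269, 152, 32.5 and 434 CPM in the large class, against 45.7, 0, 0 and 67.1 CPM. Hnrnpa3, an RNA-binding protein, stood at 916, 676, 477 and 1000 CPM, against 157, 227, 128 and 179 CPM. All 3 rose in edgeR, by 3.14 (adjusted p = 0.00557), 2.74 (adjusted p = 0.00738) and 2.21 (adjusted p = 0.00738) on the log2 scale. The classes did not overlap for Parp1 or Hnrnpa3, which describes genes picked by p and is no separate support. The share of all genes without overlap is not given here. Serpina3g, a protease inhibitor, had 105 UMIs in the large class and 0 in the small class, at least 17.1-fold higher when the small class is set at 3 UMIs over all libraries. Gstt1, a glutathione transferase, had 2 UMIs in the large class and 69 in the small class.

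Beside 7.6% of all genes called, no adhesion or agonist receptor of 24 and no cytokine signalling gene of 12 passed the test by size. Of 20 granule genes 2 rose. Timp3, an inhibitor of metalloproteinases, stood at 608, 265, 173 and 819 CPM in the large class, against 39.2, 114, 18.3 and 55.9 CPM in the small class (3.44, adjusted p = 0.00137 in edgeR). Angpt1, the angiopoietin released by platelets, stood at 251, 152, 163 and 181 CPM, against 32.7, 56.8, 0 and 44.7 CPM (2.66, adjusted p = 0.00898). Of 35 signalling genes, Sla2, an adaptor, rose (2.20, adjusted p = 0.0356).

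Of 32 cytoskeleton genes 1 fell, beside 2.15% of all genes. It was Myl9, the myosin regulatory light chain, at 361, 888, 358 and 96.4 CPM in the large class, against 1626, 1022, 1609 and 1599 CPM in the small class (-2.14, adjusted p = 0.0154 in edgeR). Of 18 transcription factors 1 fell, beside the same 2.15%. It was Gata2, which precedes Gata1 in blood progenitors, at 117, 232, 282 and 78.3 CPM, against 464, 511, 1006 and 392 CPM (-1.84, adjusted p = 0.0118). A single call in lists this small is no result about the lists. For Gata2 and Myl9 every large value lay under every small value. Both were called in the fit to these same values, and the share of all genes without overlap is not given here. The lack of overlap is therefore a description and no separate support.

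Erythroid markers fell with size. Of 9 tested 7 fell, beside 2.15% of all genes, with a median of -1.97. None of 4 macrophage markers passed the test (3 above 0, median 0.56), nor did any of 3 endothelial markers (median -0.61). The cardiomyocyte limit of the selection had used 7 of the 10 cardiomyocyte markers tested, and of the other 3 (Myl2, Pln and Ttn) 1 fell. The summed 18 erythroid markers stood at 6066 and 3987 CPM in the large barcodes of the KO libraries and 7545 and 4699 CPM in those of the het libraries, against 19230, 53310, 14760 and 15980 CPM in the small barcodes. The summed 18 cardiomyocyte markers stood at 1203, 378, 1326 and 852 CPM, against 4110, 1933, 2328 and 1465 CPM. The part of this RNA in the differences between large and small barcodes was not tested.

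**Figure D5:**
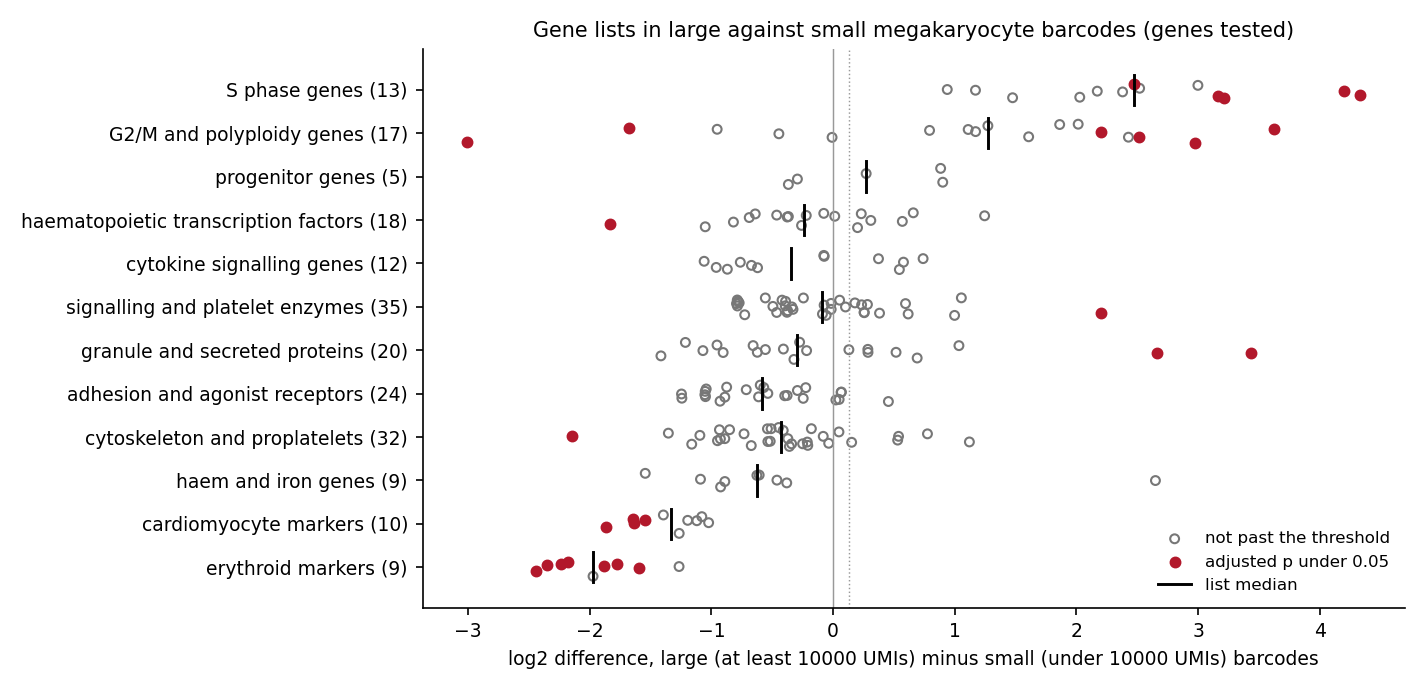
Log2 difference between large and small megakaryocyte barcodes for each tested gene of 12 lists, with filled points for an adjusted p under 0.05 in edgeR and a bar at each list's median. The solid line marks 0 and the dotted line the median of all genes, 0.13. S phase genes lie above 0 throughout, with a median of 2.48, and erythroid markers lie below 0 throughout, with a median of -1.97.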

How the data were processed

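Per the file headers, the deposited matrices came from Cell Ranger 6.0.1, and each value is a whole count of UMIs per gene and barcode, not normalized. The submitters' processing notes name mm10 and Seurat. The matrices held 55405 genes. The members were selected and the gene lists chosen with earlier results of these data known. Comparison types were gated in the same way: macrophages (416 barcodes; at least 5 C1q UMIs), endothelial cells (3284; at least 5 UMIs of Cdh5, Emcn and Plvap), cardiomyocytes (9874; at least 5% cardiomyocyte genes) and erythroid cells (9115; at least 20% globin). Each of these gates also allowed at most 2 UMIs of the 5 selecting genes, which caps the levels of those genes there.

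Counts were summed per library over the members, filtered with filterByExpr (minimum count 10, minimum total 15), scaled by TMM and fitted in edgeR 4.0.16 under R 4.3.3 (glmQLFit, glmQLFTest, Benjamini-Hochberg over all genes tested, threshold 0.05), 2 KO against 2 het libraries with no covariate. Contrasts inside the members had library as a block and were added after the data were seen. DESeq2 1.42.0 and limma 3.58.1 served as alternatives. Shares and medians were compared by exact permutation over libraries. The tests were run on simulated data first. Doublets were scored with Scrublet in scanpy 1.11.5 (expected rate 0.1). Its automatic threshold failed in KO 2 and het 1, where the median of the other thresholds, 0.323, was used.

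Genes named in the text are the selecting genes, the 15 leading genes at 50 CPM or more in every library, in each list up to 8 genes of highest level plus called ones (transcription factors, receptors and granule proteins freely), and in each contrast up to 12 called genes per direction by p, or 5 where none passed. Kit, Cdk6, Mpo, Cpa3, Mecom, Ets1, Jak2 and Bcl2l1 were named after their values were seen. Positions are from GENCODE M21 on GRCm38, which may not be the authors' annotation, and promoters from RefSeq on GRCm38.p6. Proteins were not used here. 1 platelet-lineage gene is not reported here and was left out of the lists.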

Additional observations from a re-analysis of the deposited data

How the results depend on the processing

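With 152 members in 2 libraries per group, and single barcodes holding 56.1% of the selecting genes' UMIs in KO 2 and 67.9% in het 1, few differences between KO and het could be resolved. The labels do not say that a replicate number marks a shared litter or day, so no replicate block was used in the reported fit. Deviations from the group means correlated at -0.13 between same-numbered libraries. With 2 libraries per group this is a single value for both pairs and cannot exclude a pairing. The fit with the replicate block called 0 genes between KO and het, and with crossed pairing it also called 0. Without the filter on low counts 42 genes were called between KO and het, and leaving out 1 library in turn gave 0 to 69. For large against small barcodes, limma-voom called 371 genes, DESeq2 128, keeping the barcodes under 0.1% gave 627, and leaving out 1 library gave 1 to 839. For EGFP against dsRed barcodes, keeping the globin and collagen barcodes gave 2 genes, limma-voom 2, DESeq2 4 and leaving out 1 library 0 to 1. Differences between KO and het that changed sign when 1 library was left out ranged from -0.0284 to 0.320 percentage points for the share of kept barcodes, -0.118 to 0.684 points for the share under the cardiomyocyte limit, -3044 to 6253 for median UMIs and -11.7 to 0.542 points for the globin share. The globin difference was 0.0353 points without globin and collagen barcodes and 0.0451 points when those under 0.1% were left out as well. The EGFP share of megakaryocytes minus macrophages ranged from -3.56 to 13.2 points when 1 library was left out. On the log2 scale Gata4 (KO minus het) was 0.46 with at least 10 selecting UMIs, 1.10 with at least 3 selecting genes, 0.0456 with no cardiomyocyte limit, and -0.996 to 0.798 with 1 library left out. EGFP transcripts, in the same settings of the selecting genes, stood at -0.15 and -0.13, and without globin and collagen barcodes at -0.18, and ranged from -0.39 to 0.59 with 1 library left out. The cause of these changes was not tested. The other repeats, 86 for the shares, counts and medians, kept their direction and side of the threshold, as did 193 for genes named between KO and het, where 13 passed the threshold in the repeat alone and 10 (those of Gata4 and EGFP given above) changed sign. For genes named between large and small barcodes 111 kept both and 46 lost the threshold.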
